A study of Caenorhabditis elegans with 2 samples.

Results

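Of the 612 nuclear transfer RNA (tRNA) genes of Caenorhabditis elegans, 290 lay wholly inside the span of an annotated protein-coding gene, on either strand, and binding of the tagged transcription factor FLH-1 was examined at each of them. The rule used the annotation alone and no signal value. The host gene ran on the same strand in 166 cases and on the opposite strand in 123, and 1 tRNA gene (Y71H2AM.t1) had a host on each strand. The other 322 nuclear tRNA genes, 3 of which overlapped a protein-coding gene in part, served for comparison.

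Chromatin immunoprecipitation followed by sequencing (ChIP-seq) had been carried out on whole embryos of strain OP702, of mixed stage and pooled male and female, with an age label of 2 hours, synchronised by egg bleaching. All animals carried the unc-119(tm4063) allele and the transgene wgIs702, in which flh-1 is joined at its C-terminal end to TY1, EGFP and 3xFLAG tags and a working copy, unc-119(+), comes along. Sonicated chromatin was precipitated with an antibody against GFP, so tagged FLH-1 from all embryonic cells was measured together. The 2 samples were biological replicates of this 1 group, and neither an untagged strain nor a mock precipitation was analysed here.

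FLH-1 is a zinc finger protein of the FLYWCH type, known in the worm embryo as a regulator of microRNA genes. A tRNA gene is transcribed by RNA polymerase III from promoter elements inside the gene, the A box and the B box, which the factor TFIIIC recognises. TFIIIC places TFIIIB just upstream of the gene, TFIIIB recruits the polymerase, and transcription ends at a short run of T downstream. A tRNA gene in an intron of a host on the same strand is copied by RNA polymerase II as part of the host transcript as well, whereas in an opposite-strand host the polymerases run against each other.

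The internal promoter elements are shown first, because they are what the members share whatever their host. Each gene below is written 5′ to 3′ along its own strand, from the RefSeq sequence of ce11 (WBcel235). Capitals mark the first match to an A box written TNGNNNANNNG and, further on, the last match to a B box written GNTCNANNC, both searched on the gene's own strand. The first 5 genes are among the strongest bound in each kind of host, and the last is a proline gene whose sequence recurs in 11 members.
F15G9.t1 (alanine, chrX:9743589-9743660, plus strand, same-strand host him-4): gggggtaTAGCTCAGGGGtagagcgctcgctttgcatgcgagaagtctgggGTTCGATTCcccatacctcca
C05G6.t1 (valine, chrIV:620482-620554, plus strand, same-strand host C18H7.1): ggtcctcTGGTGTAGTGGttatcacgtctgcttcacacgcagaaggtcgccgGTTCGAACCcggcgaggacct
F29C4.t1 (arginine, chrIV:143982-144054, plus strand, opposite-strand host col-99): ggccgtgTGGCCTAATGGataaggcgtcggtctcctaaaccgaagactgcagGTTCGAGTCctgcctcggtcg
C06G1.t1 (histidine, chrX:16634830-16634901, minus strand, opposite-strand host C06G1.1): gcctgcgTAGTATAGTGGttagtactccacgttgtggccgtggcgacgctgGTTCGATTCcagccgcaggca
C02B4.t2 (tyrosine, chrX:12665228-12665311, plus strand, opposite-strand host nhr-17): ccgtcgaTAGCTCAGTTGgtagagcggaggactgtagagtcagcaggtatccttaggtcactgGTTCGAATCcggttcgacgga
W09D6.t1 (proline, chrIII:11067027-11067098, plus strand, same-strand host rsa-2): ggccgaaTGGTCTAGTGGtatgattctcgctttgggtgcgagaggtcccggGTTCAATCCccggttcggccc
The A box begins at base 8 in all 6, and the B box at base 52, 53 or, in the longer tyrosine gene, 64. The looser A box was found in 281 of 290 members and the looser B box in 285, and a run of TTTT within 30 bp downstream in 288. A stricter A box, with G also fixed at the second and the eighth base, was found in 137 (47.2%).

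A member was scored by its strongest entry with a summit within 100 bp of the gene, in each of 4 deposited lists. These were a relaxed list of 30000 entries for each replicate, one of 30000 entries for the reads of both replicates pooled, and the optimal set of 371 peaks retained by IDR (irreproducible discovery rate) analysis, in which ranks are compared between replicates. The optimal set held the 371 strongest pooled entries, so a member in it is called bound here, one with a weaker pooled entry is called weakly scored, and one with no pooled entry is called unscored. The signal value of an entry, as the authors deposited it, was compared within a list only. Within a replicate, the 371 entries of highest signal were taken as its strongest. No read counts were given, and sequencing depth is therefore unknown. The tRNA genes share sequences and flanks and are not replicates, so shares and medians are given without p-values. Exact 95% binomial intervals and standard errors of the mean (SEM) over genes are descriptions that treat genes as independent.

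Tagged FLH-1 was found at tRNA genes inside protein-coding genes about as often as at tRNA genes elsewhere, and on either host strand. An optimal summit lay within 100 bp of 67 of the 290 members, a share of 23.1% (exact 95% interval 18.4 to 28.4), against a background of 23.4% over all 612 nuclear tRNA genes. Among the genes outside protein-coding genes the share was 23.6% (76 of 322). Windows of 73 bp tiled along introns away from small RNA genes had an optimal summit within the same distance in 0.0272% of cases, and windows along the whole nuclear genome in 0.0977%. The bound members therefore stood far above intronic sequence and level with other tRNA genes.

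Host strand made little difference to these shares. With a same-strand host 36 of 166 members (21.7%) were bound, and with an opposite-strand host 31 of 123 (25.2%). Among the strongest entries of replicate 1 stood 29 same-strand members (17.5%) and 28 opposite-strand members (22.8%), where the background over all tRNA genes was 20.9%. In replicate 2 the numbers were 32 (19.3%) and 25 (20.3%), with a background of 20.3%. The opposite-strand share was the higher in these 3 counts. The same-strand minus opposite-strand difference was -3.52 percentage points in the optimal set, -5.29 in replicate 1 and -1.05 in replicate 2, so the replicates differed from each other by more than the size of the difference in the optimal set. A pooled entry of any strength was found at 171 members (59.0%), beside a background of 57.2% over all tRNA genes and of 7.81% in the intronic windows, and here the order was the other way, with 100 same-strand members (60.2%) and 71 opposite-strand members (57.7%). Entries of any strength in replicate 1 were found at 53.6% of same-strand and 52.0% of opposite-strand members (background 53.1%), and in replicate 2 at 54.2% and 55.3% (background 52.5%).

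Median signal values were alike too, while the upper quartiles of bound members differed by host strand. Over the scored members the pooled signal had a median of 79.98 with same-strand hosts and 79.2 with opposite-strand hosts, and of 71.7 at scored tRNA genes outside. In the optimal set the medians were 125 for same-strand, 132 for opposite-strand and 133 for outside genes. Bound members ranged from 91.7 to 296, beside 90.3 to 370.8 for bound tRNA genes outside protein-coding genes.

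**Figure D1:**
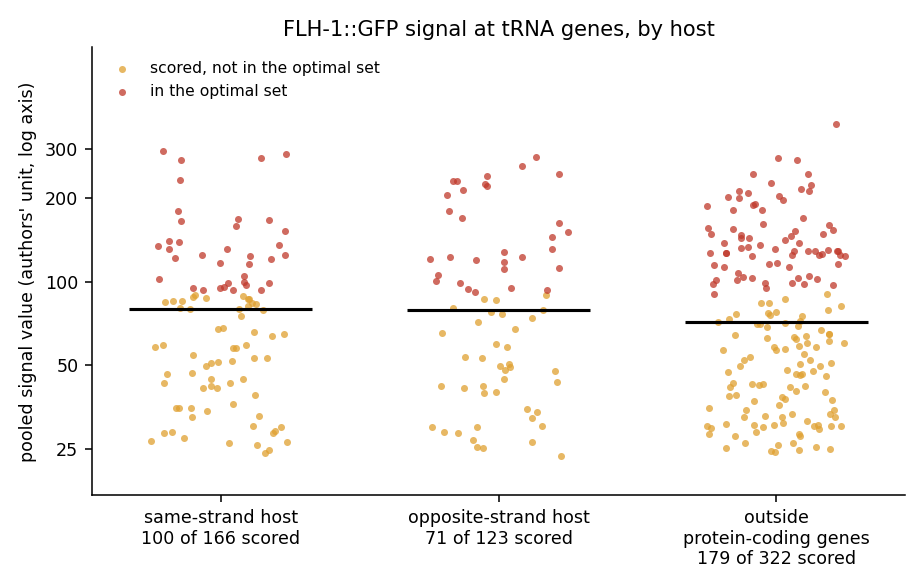
Pooled signal value (log axis) of every scored tRNA gene, split by host, with 1 point per gene, the median as a black line and genes in the optimal set in red. The medians of 79.98, 79.2 and 71.7 lie close together, and each group spans nearly the whole range.

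The strongest members stood high in both replicate lists and came from many kinds of tRNA gene and host. F15G9.t1, an alanine gene, lies in intron 39 of him-4, which encodes the extracellular matrix protein hemicentin. It had a signal value of 296 in the pooled list, 202 in replicate 1 and 99.5 in replicate 2. F15G9.t2, a second alanine gene in the same intron, had 179.8 in the pooled list, 108 in replicate 1 and 61.2 in replicate 2. Both genes of this pair were bound by summits of their own, which 1 other host showed as well.

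C28G1.t1, a glutamate gene that lies in an untranslated exon of a transcript of C28G1.2, had a signal value of 289 in the pooled list, 199 in replicate 1 and 85.8 in replicate 2. T21B4.t1, an isoleucine gene against the strand of the collagen gene col-85, had 283 in the pooled list, 184 in replicate 1 and 98.8 in replicate 2. C37A2.t1, a cysteine gene in cye-1, which encodes cyclin E, had 279 in the pooled list, 192 in replicate 1 and 86.8 in replicate 2. The last 3 ranked within the first 44 entries of every list. They were followed by F17H10.t1 in the sorting nexin gene snx-17, F41D9.t3 in sulp-3, F29C4.t1 in the collagen gene col-99, F38G1.t2 in egl-17, which encodes a fibroblast growth factor, and B0523.t1 in fli-1, the flightless homolog, with pooled values from 274 down to 232.

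The 20 members of highest pooled signal, from 296 to 167, were among the strongest entries of both replicates without exception. The pooled signal came from the reads of these same replicates, so this is a description and not separate support. They held 16 of the 22 isotype classes (genes with no named isotype counted as 1 class). Of the 166 members with same-strand hosts 8 were among them, and of the 123 with opposite-strand hosts 12. On chromosome X lay 12 of the 20, and 96 of all 290 members (33.1%). The share bound over all members was alike on X (22 of 96, 22.9%) and on the other chromosomes (45 of 194, 23.2%). No host stood behind many of the bound members: 66 hosts had a bound member over all 290, and 2 of these had a pair.

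Entries in the single replicates became fewer as pooled signal fell. The pooled list used the reads of both replicates and the optimal set compared their ranks. The counts that follow are therefore in part built into the calls. Of the 67 bound members, 66 had an entry in both replicate lists, 45 were among the strongest of both, 10 of replicate 1 alone, 8 of replicate 2 alone and 4 of neither. Of the 119 unscored members, 93 had no entry in either replicate. Over the 124 members listed in both replicates the log2 signal values had a Pearson correlation of 0.79 and a Spearman correlation of 0.80, given as a description over genes of the same pair of libraries, and Pearson's value was 0.80 without the 2 genes farthest from the median.

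**Figure D2:**
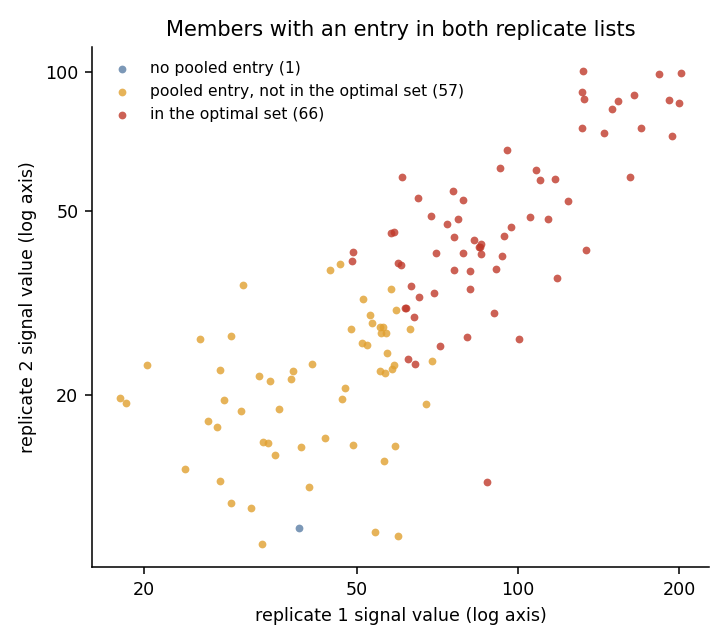
Signal value in replicate 1 (x, log axis) against replicate 2 (y, log axis) for the 124 members with an entry in both lists, coloured by their place in the pooled list. The 66 bound members fill the upper right, with 1 of them low in replicate 2.

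The line between bound and weakly scored members was a threshold in a continuous range of pooled signal. The 3 weakest bound members were C38C6.t1 in sre-13, ZK507.t1 in dos-1 and C06B8.t3 in C06B8.7, with pooled values of 93.1, 93.0 and 91.7. The 3 strongest below the threshold were F31B12.t1 in plc-1, K01A12.t2 in K01A12.3 and F59C12.t2 in F59C12.3, at 89.98, 89.4 and 89.1. The single replicates set them apart more. In replicate 2 the 3 bound members ranked 265, 627 and 526, and the 3 others 387, 26776 and 1606. In replicate 1 the ranks were 925, 368 and 407, and 500, 633 and 308. The distance limit was of less weight. Every optimal summit counted lay within 77 bp of its member, and 11 of the 119 unscored members had a pooled summit beyond the limit but within 200 bp.

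At most bound members, though not at all, the summit sat on the tRNA gene itself. It fell inside the gene in 48 of 67 cases (71.6%, exact 95% interval 59.3 to 82.0), upstream in 14 and downstream in 5, with a median of 18 bp from the 5′ end along the gene's strand. Among the strongest entries of replicate 1 the share inside was 70.2%, and of replicate 2 64.9%. At bound tRNA genes outside protein-coding genes it was 52.6% in the optimal set, 53.5% in replicate 1 and 59.7% in replicate 2. The members' share inside was higher than theirs in each list, by amounts that differed between replicates.

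**Figure D3:**
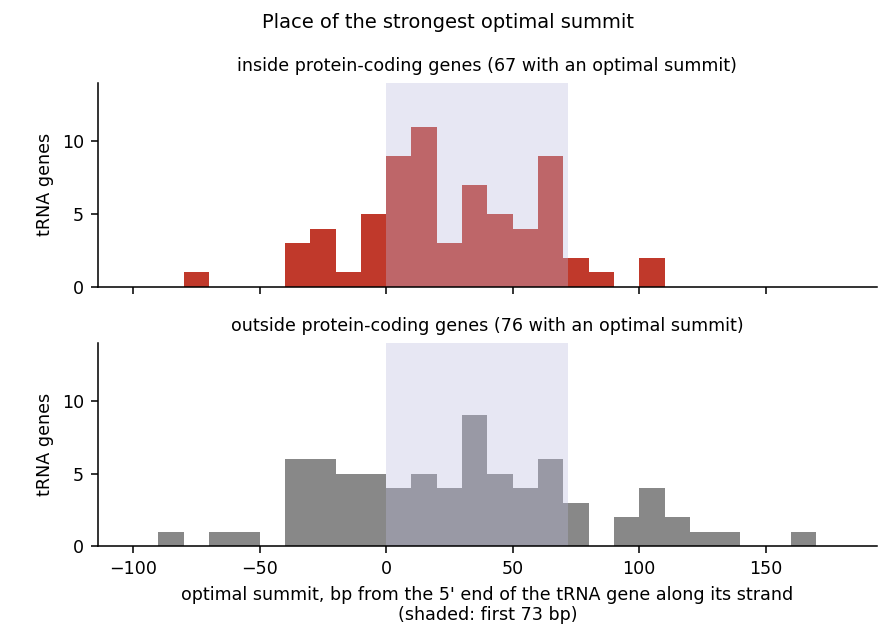
Place of the optimal summit in bp from the 5′ end of the tRNA gene, along its strand, for bound genes inside (upper) and outside (lower) protein-coding genes, in 10-bp bins, with the first 73 bp shaded. Inside protein-coding genes 48 of 67 summits lie in the gene, and outside 40 of 76.

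All but 8 of the 290 lay in an intron of every transcript that spanned them, none touched a coding exon, and 64 of these 282 were bound. By intron length, 9 of 41 members (22.0%) were bound in introns of up to 200 bp, 23 of 98 (23.5%) up to 500 bp, 20 of 65 (30.8%) up to 1000 bp and 12 of 78 (15.4%) beyond, with no steady trend. The shares among the strongest entries of replicate 1 were 14.6%, 19.4%, 30.8% and 14.1%, and of replicate 2 24.4%, 18.4%, 24.6% and 12.8%. Away from tRNA genes, the host's own promoter was rarely occupied. An optimal summit away from any tRNA gene lay in the promoter of 3 of the 228 hosts (1.32%), beside a background of 0.766% over all protein-coding genes. None of these 3 hosts had a bound member, where 66 of all 228 hosts had one, and 3 hosts are too few to compare. Summits at tRNA genes were left out of this count, also where the tRNA gene itself lay in a promoter. Of the 290 members, 27 lay in the promoter of a protein-coding gene. Of these 4 were bound (14.8%), C28G1.t1 among them, against 63 of the other 263 (24.0%). The shares among the strongest entries were 11.1% and 20.5% in replicate 1, and 18.5% and 19.8% in replicate 2.

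A smaller share was bound among members with a tRNA gene close by. Another tRNA gene lay within 500 bp of 61 members, of which 4 (6.56%) were bound, against 63 of the other 229 (27.5%). The shares among the strongest entries were 8.20% and 22.7% in replicate 1, and 6.56% and 23.1% in replicate 2. At tRNA genes outside protein-coding genes the contrast was smaller, with 19 of 109 bound (17.4%) where a neighbour lay within 500 bp and 57 of 213 (26.8%) where none did. The smallest gap between summits in any list was 199 bp, and its part in these shares was not tested. Hosts with 3 or more members held 46 members, of which 3 were bound and 29 unscored.

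The largest such groups show the range of pooled values within 1 intron, with little support in the single replicates. Intron 6 of ajm-1, which encodes a protein of apical junctions, holds 5 glutamine genes. H08J11.t3 had a pooled signal of 73.9 and H08J11.t5 of 23.6, and H08J11.t1, H08J11.t2 and H08J11.t4 had no pooled entry. In replicate 1 H08J11.t3 had 61.1 and H08J11.t5 20.8, and neither had an entry in replicate 2. In K01A12.3, intron 2 holds 3 cysteine and 2 arginine genes, with pooled values of 89.4 at K01A12.t2 and 30.03 at K01A12.t3 and no pooled entry at the other members. K01A12.t2 had 54.0 in replicate 1, where K01A12.t3 had no entry. In replicate 2 the same weak entry, of 10.1, was counted for both. None of these 10 genes was bound.

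The GC content and the B box of the tRNA gene were alike in bound and unscored members. GC content of the gene had a median of 58.9% in both. The B box word GTTCGA was present in 50 of 67 bound, 74 of 104 weakly scored and 82 of 119 unscored members, and in 72.2% of all tRNA genes. The looser B box was present in 66 of 67 bound and 115 of 119 unscored members. The looser A box was present in 67 of 67 bound and 111 of 119 unscored members, and the stricter A box in 43.3% and 51.3%. Of the 36-base words starting within 150 bp of the gene, a median of 85.3% occurred once in the genome at bound members, with a median that was 0.51 percentage points higher at unscored members. The share of such words was under 50% at 5 unscored members and at no bound or weakly scored member. The number of copies did differ. A gene sequence found once among the nuclear tRNA genes belonged to 8 of 67 bound, 20 of 104 weakly scored and 40 of 119 unscored members, and the median number of copies was 11, 10.5 and 7. Outside protein-coding genes it belonged to 13 of 76 bound and 39 of 143 unscored genes, with medians of 9 and 10 copies.

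Identical genes were found among bound and unscored members alike. The members comprised 120 distinct gene sequences, 42 of them shared by 2 or more members and 30 of these with a bound member. Of the other 78 sequences, with 1 member each, 11 were bound. A bound and an unscored member were both present for 19 sequences. Of the 18 sequences with 5 or more members, 15 had bound, weakly scored and unscored members. The commonest, an isoleucine gene with 13 members, had 3 bound, 5 weakly scored and 5 unscored. The proline gene shown above had 11 members, of which none was bound and 8 were unscored, while 4 of its 13 copies outside protein-coding genes were bound. Proline members as a whole had 2 bound of 22 (9.09%), alanine members 6 of 15 (40.0%) and cysteine members 4 of 9 (44.4%), the lowest and the 2 highest shares among isotypes with 5 or more members. Outside protein-coding genes the shares were 8 of 20 for proline (40.0%), 6 of 19 for alanine (31.6%) and 1 of 4 for cysteine, so the order was not that of the members. In each replicate 1 proline member, 5 alanine members and 3 cysteine members were among the strongest entries.

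Bound and unscored members differed in the sequence just upstream of the gene. Over the 150 bp upstream, GC content had a median of 45.3% at bound, 42.0% at weakly scored and 36.7% at unscored members. Over the 150 bp downstream the medians were 35.3%, 34.7% and 33.3%. The difference lay close to the gene. From 51 to 75 bp upstream the mean was 49.0% ± 1.66 (SEM, 67 genes) at bound members, 44.3% ± 1.17 at the 104 weakly scored and 36.9% ± 1.02 at the 119 unscored. From 151 to 175 bp upstream the means were 34.6% ± 1.56, 37.3% ± 1.33 and 37.0% ± 1.301, so the order had gone.

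Divided into 4 groups of about equal size by upstream GC content, with limits at 36%, 41.3% and 45.3%, the members went from 3 bound of 74 in the lowest group through 11 of 76 and 23 of 69 to 30 of 71 in the highest. Unscored members went the opposite way, from 53 through 33 and 18 to 15. Among the strongest entries of replicate 1 stood 3, 9, 19 and 26 members from the lowest to the highest group, and of replicate 2 2, 8, 18 and 29. The same rise was present on each host strand, from 1 of 39 to 15 of 41 with same-strand hosts and from 2 of 34 to 15 of 30 with opposite-strand hosts. It was present without members that had a neighbour within 500 bp (3 of 57 to 29 of 59), and at tRNA genes outside protein-coding genes, from 7 of 108 to 26 of 56 over the same limits. Upstream GC content thus went with binding wherever the tRNA gene lay.

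Entries as a whole went with GC content too. Intronic windows away from small RNA genes had a pooled entry in 4.62% of cases when the adjoining 150 bp fell in the lowest of these groups and in 20.04% when it fell in the highest, and an optimal summit in 0.00571% and 0.200%. The part of GC content in the calls at members was not tested.

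Members with identical genes gave the comparison within a sequence. In 17 of the 19 sequences with both outcomes the bound copies had the higher median GC content over the 150 bp upstream, and in 2 the lower. The median difference over the 19 was 7.33 percentage points. Downstream the bound copies were higher in 9 and lower in 10, with a median difference of -0.67 percentage points. The contrast between copies of a gene was on the upstream side.

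**Figure D4:**
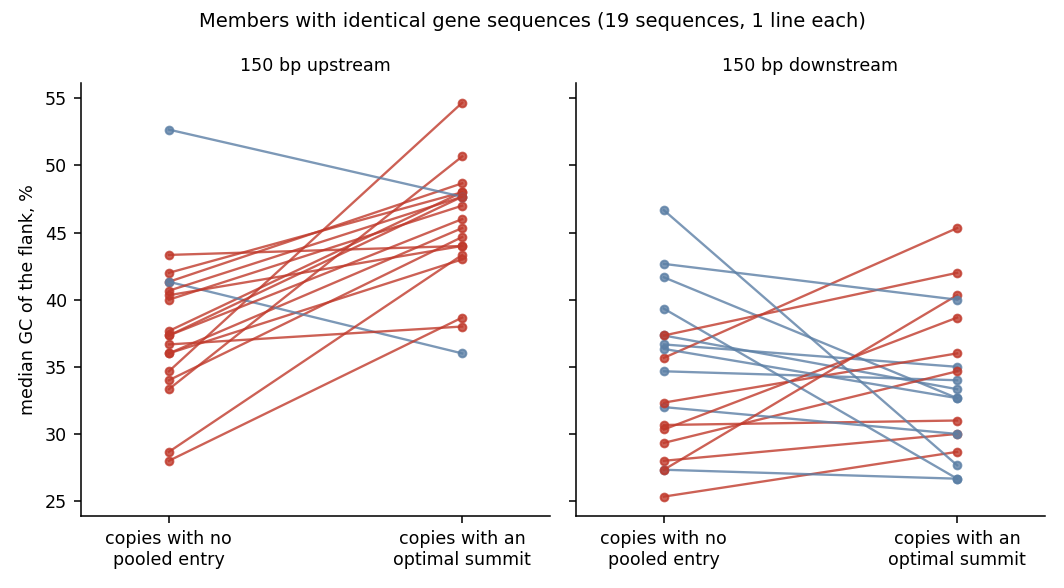
Median GC content of the 150 bp upstream (left) and downstream (right) for 19 gene sequences that had both bound and unscored members, 1 line per sequence, red where bound copies are higher. Upstream 17 of the 19 lines rise, and downstream 9 of 19.

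The upstream sequences of such copies are shown for 3 of the commonest sequences with both outcomes. The 100 bases before the gene are written 5′ to 3′ along its strand (RefSeq, ce11), ending at the base before the gene, with every G and C in capitals. The strongest bound copy on chromosomes II to X comes first in each pair and the first unscored copy there in genome order second.
T21B4.t1 upstream (isoleucine, chrII:12494641-12494740, plus strand, bound, host col-85): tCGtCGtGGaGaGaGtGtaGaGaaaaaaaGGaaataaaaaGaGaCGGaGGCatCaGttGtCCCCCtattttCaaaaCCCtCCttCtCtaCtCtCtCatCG
Y92C3A.t2 upstream (isoleucine, chrIII:1163428-1163527, minus strand, unscored, host cdh-12): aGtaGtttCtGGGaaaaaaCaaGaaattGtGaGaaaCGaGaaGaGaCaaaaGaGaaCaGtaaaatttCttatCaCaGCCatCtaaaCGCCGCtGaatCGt
K08E7.t1 upstream (lysine, chrIV:12594640-12594739, plus strand, bound, host pgp-1): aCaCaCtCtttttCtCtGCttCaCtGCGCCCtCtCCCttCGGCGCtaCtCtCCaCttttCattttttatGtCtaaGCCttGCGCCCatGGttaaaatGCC
C56G7.t1 upstream (lysine, chrIII:3389437-3389536, plus strand, unscored, host hecw-1): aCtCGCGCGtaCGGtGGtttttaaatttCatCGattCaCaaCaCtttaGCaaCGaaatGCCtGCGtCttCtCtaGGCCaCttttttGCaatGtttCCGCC
Y82E9BR.t1 upstream (glycine, chrIII:1424391-1424490, plus strand, bound, host lelo-2): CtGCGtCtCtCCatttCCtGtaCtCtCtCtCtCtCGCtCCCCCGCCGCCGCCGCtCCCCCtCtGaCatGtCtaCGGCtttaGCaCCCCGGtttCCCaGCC
K04C2.t2 upstream (glycine, chrIII:6888682-6888781, minus strand, unscored, host brd-1): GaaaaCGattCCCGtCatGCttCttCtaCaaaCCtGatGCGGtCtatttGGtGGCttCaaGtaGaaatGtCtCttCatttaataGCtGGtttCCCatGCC
T21B4.t1 has 44 G or C among the 100 bases and its unscored copy Y92C3A.t2 has 37. For lysine the numbers are 48 and 45, and for glycine 64 and 43. The bound lysine copy, K08E7.t1, had signal values of 132 in the pooled list, 84.6 in replicate 1 and 41.9 in replicate 2, and C56G7.t1 had an entry of 27.6 in replicate 2 only. The bound glycine copy, Y82E9BR.t1, had 106 in the pooled list, 80.2 in replicate 1 and 26.7 in replicate 2. Neither Y92C3A.t2 nor K04C2.t2 had an entry in any list.

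Alternating G and A, read on either strand, led the words that separated bound from unscored genes. All words of 5, 6 and 7 letters were counted, with a word and its reverse complement as 1, in the 150 bp upstream of all 612 tRNA genes and ranked by the share of bound minus unscored genes with the word. The word GAGAGA, which reads TCTCTC from the opposite strand, came first of 2080 words of 6 letters, and the leading words of 5 and 7 letters, CTCTC and GGAGAGA, overlapped it on one strand or the other. Because it was picked for its difference, its shares are a description.

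Among members GAGAGA was present upstream of 29 of 67 bound (43.3%), 18 of 104 weakly scored (17.3%) and 16 of 119 unscored (13.4%). It was present upstream of 21.4% of all 612 tRNA genes and in 6.53% of the 150-bp flanks of intronic windows. Read from the other side, 29 of the 63 members with the word were bound (46.0%), against 38 of the 227 without it (16.7%). The corresponding shares were 41.3% and 13.7% among the strongest entries of replicate 1, and 39.7% and 14.1% in replicate 2. With same-strand hosts 14 of 35 members with the word were bound, with opposite-strand hosts 15 of 27, and outside protein-coding genes 32 of 68. Downstream the word was no more frequent at bound members (4 of 67) than at unscored ones (10 of 119).

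At bound members the word was most frequent from 51 to 100 bp upstream, while mean GC content was highest from 1 to 25 bp (51.4%). The word fell from 51 to 100 bp upstream in 22.4% of bound, 6.73% of weakly scored and 2.52% of unscored members. From 151 to 200 bp upstream the shares were 7.46%, 1.92% and 1.68%, and from 201 to 250 bp 2.99%, 1.92% and 2.52%. Where the word occurred within 150 bp of the gene, its nearest copy lay a median of 59 bp away at bound members. The median was similar at weakly scored (49 bp) and unscored members (56 bp). The word was read as GAGAGA on the tRNA gene's strand at 14 bound members and as TCTCTC at 18, some having both.

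**Figure D5:**
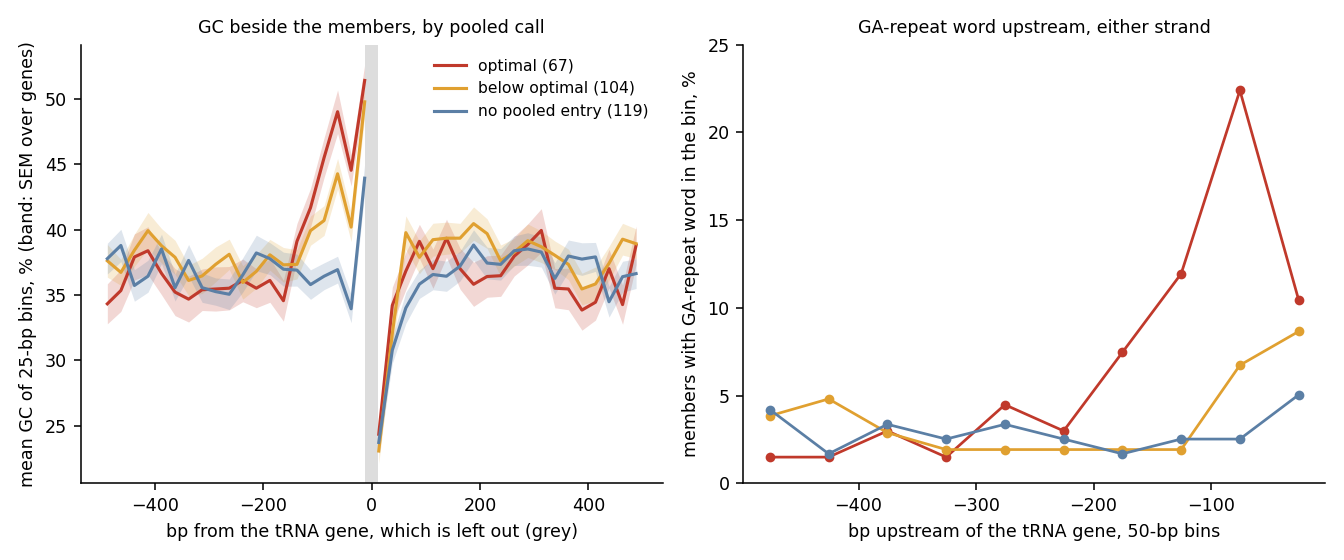
Left, mean GC content in 25-bp bins to each side of the members, by their place in the pooled list, with a band of 1 SEM over genes. Right, share of members with GAGAGA on either strand in 50-bp bins upstream. Bound members stand above the others within about 150 bp upstream, with 49.0% GC in the bin from 51 to 75 bp and the word in 22.4% of members from 51 to 100 bp. Farther away the GC lines cross without a steady order. The word is still more frequent at bound members from 151 to 200 bp (7.46%).

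The word and the GC content overlapped without being the same, as 10 members of the lowest GC group had the word and 48 of the highest lacked it. In the highest GC group 13 of 23 members with the word were bound (56.5%) and 17 of 48 without it (35.4%). In the third group it was 10 of 19 (52.6%) and 13 of 50 (26.0%), and in the second 4 of 11 and 7 of 65. In the lowest group 2 of 10 were bound with the word and 1 of 64 without. In each group the share bound was the higher with the word, on small numbers. In the lowest group 8 of 10 members with the word were unscored (80%), against 45 of 64 without it (70.3%). In the other groups the unscored share was lower with the word. Among the 19 sequences with both outcomes, 15 of 40 bound copies (37.5%) and 8 of 53 unscored copies (15.1%) had it. The word was picked for its bound minus unscored difference over genes that include these members. These shares are therefore a description, and the part of the word apart from GC content was not tested.

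Intronic windows without a tRNA gene moved in the same direction. Their adjoining 150 bp held GAGAGA at 29 of the 98 windows with an optimal summit. Windows with the word had a pooled entry in 12.5% of cases against 7.49% without it. A summit could mark several neighbouring windows, whose 150-bp flanks overlapped, so the 98 windows are not separate sites. Whether the word goes with FLH-1 at tRNA genes by itself was not tested.

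The upstream bases of 4 of the strongest members with the word in the 100 bp before the gene are written as before, with each GAGAGA or TCTCTC in capitals and overlapping copies joined.
C28G1.t1 upstream (glutamate, chrX:8836013-8836112, plus strand): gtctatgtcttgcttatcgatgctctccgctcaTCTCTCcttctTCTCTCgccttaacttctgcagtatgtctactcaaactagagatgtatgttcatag
T21B4.t1 upstream (isoleucine, chrII:12494641-12494740, plus strand): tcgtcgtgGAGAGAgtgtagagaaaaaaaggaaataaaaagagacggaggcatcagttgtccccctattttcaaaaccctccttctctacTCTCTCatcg
F41D9.t3 upstream (asparagine, chrX:8404399-8404498, plus strand): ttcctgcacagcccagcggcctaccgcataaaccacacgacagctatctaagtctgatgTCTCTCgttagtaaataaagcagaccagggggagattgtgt
F29C4.t1 upstream (arginine, chrIV:143882-143981, plus strand): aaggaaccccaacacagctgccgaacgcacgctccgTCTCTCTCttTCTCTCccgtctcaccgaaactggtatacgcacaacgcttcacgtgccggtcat
F41D9.t3, against the strand of the sulphate permease family gene sulp-3, had signal values of 261 in the pooled list, 164 in replicate 1 and 89.0 in replicate 2. F29C4.t1 had 245 in the pooled list, 169 in replicate 1 and 75.8 in replicate 2. Of the 20 strongest members 11 had the word upstream. The strongest member of all, F15G9.t1, and C37A2.t1 lacked it, so it was present at many but not at all of the strongest sites.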

How the data were processed

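ChIP-seq of FLH-1::GFP was carried out on 2 biological replicates of 1 group. Per the file headers and the description files deposited with the samples, alignments to ce11 were compared with a control alignment to call relaxed peak lists per replicate and pooled, and IDR gave the optimal set. The aligner, peak caller, IDR threshold, read length and handling of multi-mapped reads were not given in the sources used here. Signal values deposited by the authors served to rank entries within a list. The deposited −log10 q value by the authors reached 1.57 for the strongest entries and was not used for ranking.

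Genes came from the Ensembl annotation (release 115, WBcel235), whose coordinates, like those of the lists, ended within the chromosome lengths of the RefSeq genome. A host is any protein-coding gene that spans the tRNA gene, and its promoter reached 1000 bp up and 200 bp down from the 5′ end. Printed genes have no identical copy on chromosome I, and printed flanks are those of members on the other chromosomes. Matching of summits was checked with summits planted at known distances. Python 3.11.15, pandas 2.3.3 and scipy 1.17.1 were used. Members and lists, including flank lengths and words, were chosen with earlier results of these data known. The genes named were the 20 of highest pooled signal, the 5 highest with same-strand hosts, the 3 on each side of the optimal threshold and hosts with 4 or more members, and genes named beyond these were chosen after their values were seen. Depth is unknown, so no interval covers it, and intervals cover no variation between embryo batches.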

Additional observations from a re-analysis of the deposited data

How the results depend on the processing

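Counts of bound members were within 1.5 times of the reported 36 same-strand and 31 opposite-strand members under the other limits, settings and single replicates, except with the 186 strongest of the optimal set (17 and 17) and, for opposite-strand hosts, without chromosome X (19). Leaving out a replicate gave 29 to 32 same-strand and 25 to 28 opposite-strand members. The share of same-strand minus opposite-strand members stayed below 0 under every alternative run, from -5.29 to -1.05 percentage points when a replicate was left out. The share of members minus outside genes (-0.50 percentage points) had no stable sign: it was 1.02 with a limit of 50 bp, -1.40 with 200 bp, -3.49 with the 186 strongest, 1.05 with each summit counted for its nearest tRNA gene, 0.35 without members in a promoter, and -2.39 to -1.15 with a replicate left out. The share of summits inside the gene was 76.5% in the 186 strongest and 64.9% to 70.2% with a replicate left out. The median pooled signal of same-strand minus opposite-strand members (0.82) was -10.8 with a limit of 50 bp. Uniqueness, bound minus unscored, was -0.58 percentage points with 50-base words. The cause of these moves was not tested.

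The following alternatives were chosen after seeing the data. Upstream GC content, bound minus unscored, was 8.67 percentage points, 1.00 over 500 bp, 2.00 downstream, 7.33 without chromosome X, 7.67 with 1 member per distinct sequence and 7.33 to 8.67 with a replicate left out. The GAGAGA share, bound minus unscored, was 29.8 percentage points, 5.41 over 50 bp, 27.5 over 500 bp, -2.43 downstream, 25.8 with 1 member per distinct sequence and 31.7 to 33.9 with a replicate left out. The share bound with a neighbour minus without (-20.95 percentage points) was -18.5 with neighbours within 1000 bp, -24.0 without chromosome X and -16.6 to -14.5 with a replicate left out. No paired analysis was possible because the 2 samples belong to 1 group.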
